A study of Homo sapiens with 6 samples.

Results

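Messenger RNA of CTXR, a cabazitaxel-resistant subline of the human prostate carcinoma line DU145, was compared with that of parental DU145. The comparison takes 2 of the 6 libraries of the series and spans the total change after selection with docetaxel and then with cabazitaxel. DU145 is an established line that grows without androgen. DTXR, the intermediate, was selected from DU145 and kept under 5 nM docetaxel. CTXR was obtained from DTXR and kept under 5 nM cabazitaxel, and all 3 lines were harvested without drug treatment, per the labels. The other 3 libraries come from C4-2B, an androgen receptor-positive prostate line, and its resistant sublines TaxR and CabR. Each line is represented by 1 library, and each resistant line by 1 derivation. No difference below therefore has a replicate check, and no p-value is given.

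Docetaxel and cabazitaxel are taxanes, drugs that bind beta-tubulin inside microtubules, hold the microtubules in the polymerised state and stop cells in mitosis. Cells can escape them by pumping the drug out, above all through P-glycoprotein, the product of ABCB1, or by altering tubulin, mitosis or the apoptotic response. Cabazitaxel was developed as a taxane that P-glycoprotein exports less readily than docetaxel. Interferon-stimulated genes, which appear repeatedly below, encode antiviral and antigen-presenting proteins that cells switch on through a complex that contains STAT2 and IRF9.

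Values are FPKM as deposited, fragment abundance corrected for the length of the transcript and the size of the library. Genes were measured when they reached 1 FPKM in DU145 or in CTXR, which 15281 of 60658 listed genes did. Higher and lower genes are those whose (FPKM + 1) in CTXR and in DU145 differ by a log2 ratio of at least 1 in size, here named the size rule. Adding 1 to both values understates the change of low genes. Where 3 values are given, they are in the order DU145, DTXR, CTXR. DTXR and CTXR ratios share the DU145 library and are only set side by side. In whole cultures, fewer cells of a kind and less RNA per cell cannot be told apart.

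The DU145 identity of both libraries held in the markers. All 8 markers of the DU145 side, such as VIM, CD44 and UCHL1, were at 29.1 FPKM or more in both DU145 and CTXR. Their sums were 2333 and 2909, of which S100A6 alone held 762 and 1217. KRT7 (98.3 and 30.1 FPKM) and AXL (138 and 63.1) were lower in CTXR by the size rule, and no marker of this side was higher. Of 10 markers of C4-2B and of prostate luminal cells, 3 reached 1 FPKM in each, and their sum was 14.02 in DU145, 9.22 in CTXR and 5320.3 in C4-2B. No leukocyte or endothelial marker reached 1 FPKM in either line. The libraries summed to 803230 and 812932 FPKM and held 14139 and 14270 genes at 1 FPKM or more. Mitochondrial genes took 40.7% of the total in DU145, 40.2% in DTXR and 35.3% in CTXR.

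Against DU145, CTXR had 1299 higher genes, 8.50% of those measured, and 953 lower genes, 6.24%. Counts for the gene lists below are to be read beside these shares, and in short lists many lie near them. Among the 12458 measured protein-coding genes, 937 (7.52%) were higher and 598 (4.80%) lower. The median log2 ratio was 0.00 and all but the outer 5% of genes lay between -1.40 and 1.72. Changes of great size were more often upward: 86 genes were higher and 31 lower by a log2 ratio of at least 3. Of the higher genes 557 were under 1 FPKM in DU145, and of the lower genes 403 were under 1 FPKM in CTXR. With the libraries set to the same total without mitochondrial genes, the median log2 ratio moved to -0.12 and the calls became 1055 higher and 1155 lower, so that 47.7% of called genes were higher in place of 57.7%.

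**Figure D1:**
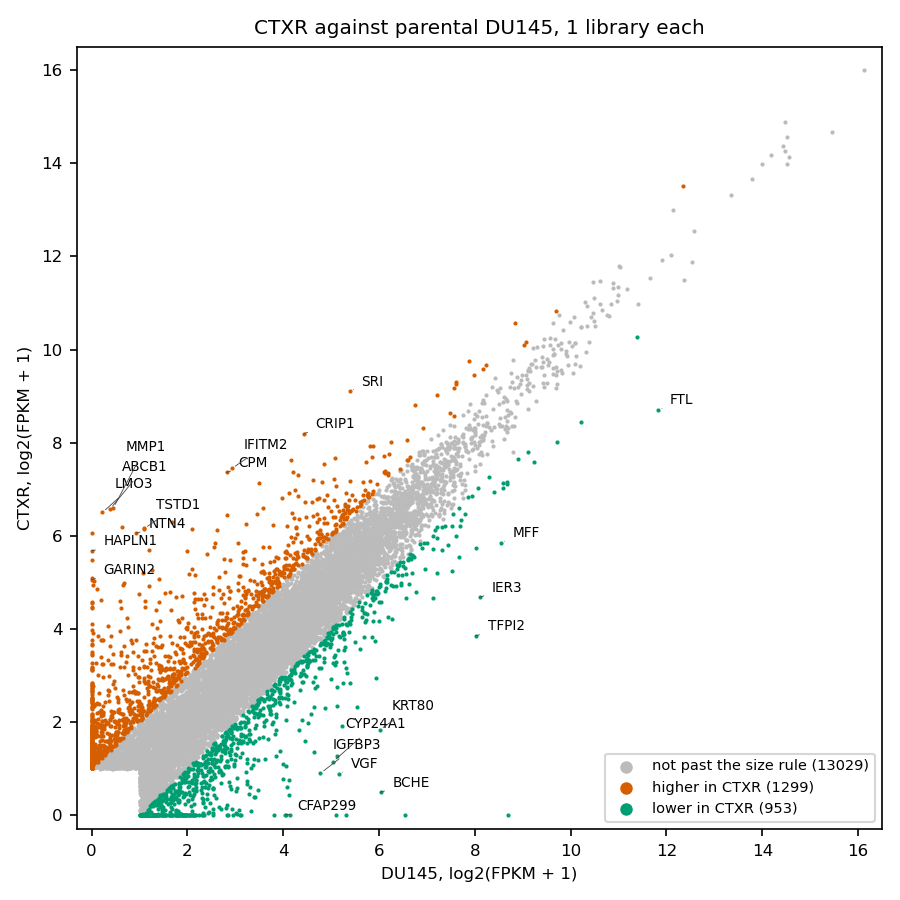
Every measured gene by its log2(FPKM + 1) in DU145 (x axis) and in CTXR (y axis), 1 library each; orange genes are higher and green genes lower by a log2 ratio of at least 1. The 1299 higher genes include a column near 0 on the x axis, where ABCB1, LMO3 and MMP1 stand, and FTL is the most abundant of the named lower genes.

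The drug pump gene ABCB1 was the second of all coding genes by its rise. Its identifier is ENSG00000085563, on chromosome 7 from 87503633 to 87713323 on the minus strand of GRCh38. ABCB1 stood at 0.304 FPKM in DU145, against 68.0 in DTXR and 94.2 in CTXR, a log2 ratio of 6.19 for CTXR. DU145 was nearly silent and both resistant lines were high. No other measured efflux pump was higher in CTXR. ABCG2, the breast cancer resistance protein pump, was lower at 4.75, 0.517 and 0.477 FPKM, and ABCC3, a multidrug resistance-associated pump, was lower at 45.9, 23.4 and 21.4. Of 9 measured uptake transporters, 3 were higher and 1 was lower. SLCO4A1, an organic anion transporter of the OATP family, had similar values in DU145 (10.2) and DTXR (8.81) and reached 139.8 FPKM in CTXR. SLCO1B3, an OATP with taxanes among its known substrates, stood at 0.812, 13.4 and 10.3, and SLCO4C1 at 0.313, 3.14 and 2.06. SLC22A5, the carnitine transporter, was the lower one, with 9.44, 4.11 and 3.56 FPKM.

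None of 16 measured tubulin genes, which encode the taxane target, passed the size rule in CTXR, and their median log2 ratio was -0.14. Over all measured genes 8.50% were higher and 6.24% lower, and the median absolute log2 ratio was 0.41. In a list this short few calls would be due, so the count does not set tubulins apart from other genes. TUBB, the main beta-tubulin of dividing cells, stood at 449, 453 and 327 FPKM (log2 ratio -0.46), and TUBB3, the neuronal isotype often studied in taxane resistance, at 41.1, 51.8 and 43.6. The member nearest to the rule was TUBD1, delta-tubulin, at 8.26, 5.70 and 17.5 FPKM and a log2 ratio of 0.997 that was just short of it. It passed the rule when the libraries were scaled by median-ratio size factors. Among 24 measured microtubule-associated proteins 1 was higher and 3 were lower. The stabilising protein MAP2 had 13.3 FPKM in DU145 and 2.36 in CTXR, with DTXR between them at 9.83. MAP7, which recruits kinesin-1 to microtubules, was lower as well, at 5.62, 2.14 and 0.829. CLIP1, which tracks growing plus ends, was at the edge of the rule (47.0 and 22.9 FPKM, log2 ratio -1.004, or -0.99 and no longer past it with median-ratio scaling). TPPP3, a tubulin polymerisation promoting protein, was the one higher member, at 0.181, 0.652 and 3.46.

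Of 22 mitosis and spindle checkpoint genes, MKI67 alone was lower, at 40.8 FPKM in DU145 and 19.5 in CTXR, and none was higher. The list had a median log2 ratio of -0.40. BUB1B, a spindle checkpoint kinase, had 35.4 and 18.7 FPKM and KIF11, the motor that separates spindle poles, 28.6 and 17.0, neither past the rule. Of 24 replication genes, DBF4, the activator of the CDC7 kinase, was the one called, at 16.4, 169.6 and 119 FPKM. It lies beside ABCB1. Of 19 measured G1 cyclins and CDK inhibitors 2 were higher, 2 lower and 15 not past the rule, with a median of -0.06. Both CDKN2D and CDKN2C, CDK inhibitors of the INK4 family, were higher, CDKN2D at 7.24, 4.14 and 21.4 FPKM and CDKN2C at 15.2, 15.4 and 37.9. CDK6, a G1 kinase that they inhibit, was lower, with 4.67 FPKM in DU145 and 1.17 in CTXR. CDKN1C, an inhibitor of another family, was lower too, at 7.67 and 2.66. With a pseudocount of 5 neither CDK6 nor CDKN1C passed the rule (log2 ratios -0.65 and -0.73). Of 17 measured replication-dependent histone genes 6 were lower and none higher, with a median of -0.79. H2BC11 stood at 38.9, 2.93 and 7.88 FPKM and H1-2 at 384, 54.98 and 130.4, so CTXR lay between DTXR and DU145 in both. Most transcripts of these histone genes lack the poly(A) tail by which mRNA libraries are often selected. Their FPKM may therefore reflect only part of their RNA, and the histone result is uncertain.

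The 15 coding genes with the greatest rise include several that were almost absent from DU145. LMO3, a LIM-domain transcription cofactor, headed them with 0.168, 20.6 and 89.6 FPKM, a log2 ratio of 6.28. MMP1, the interstitial collagenase, followed ABCB1 with 95.6 FPKM in CTXR against 0.367 in DU145 and 36.7 in DTXR. HAPLN1, a link protein that joins hyaluronan to proteoglycans, was listed at 0 in DU145 and reached 7.95 FPKM in DTXR and 50.1 in CTXR. These 3 genes stood higher in CTXR than in DTXR. NTN4, a netrin of basement membranes, behaved alike with 0.906, 5.64 and 65.5 FPKM (log2 ratio 5.12). TSTD1, a sulfurtransferase, had 1.13, 13.9 and 70.1. Most of the log2 rise of NTN4 lay between DTXR and CTXR, and the same held for another 3 genes. SUCNR1, the receptor for succinate, stood at 0.0177 and 0.186 FPKM in DU145 and DTXR and at 29.7 in CTXR. ELF3, an ETS transcription factor of epithelial cells, had 0.0303, 1.59 and 31.5. CPM, a membrane carboxypeptidase, had 6.06 and 14.8 FPKM against 164 in CTXR.

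In other leading genes much of the rise was present in DTXR. CXCL5, a neutrophil-attracting chemokine, had 36.3 FPKM in DTXR and 28.1 in CTXR, from 0.0864 in DU145. GARIN2 stood at 2.4e-05 FPKM in DU145 and at 30.4 and 32.4 in the resistant lines. TNFRSF6B, a soluble decoy receptor for FAS ligand, stood at 1.2e-07 FPKM in DU145 and had 14.99 and 22.7. DU145 values this small may be products of the model that divides reads among genes, so the size of both rises is uncertain. RBPMS, an RNA-binding protein, had 2.22, 39.6 and 77.3 FPKM. The list closes with IFITM3 and IFITM2, described with the interferon genes.

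**Figure D2:**
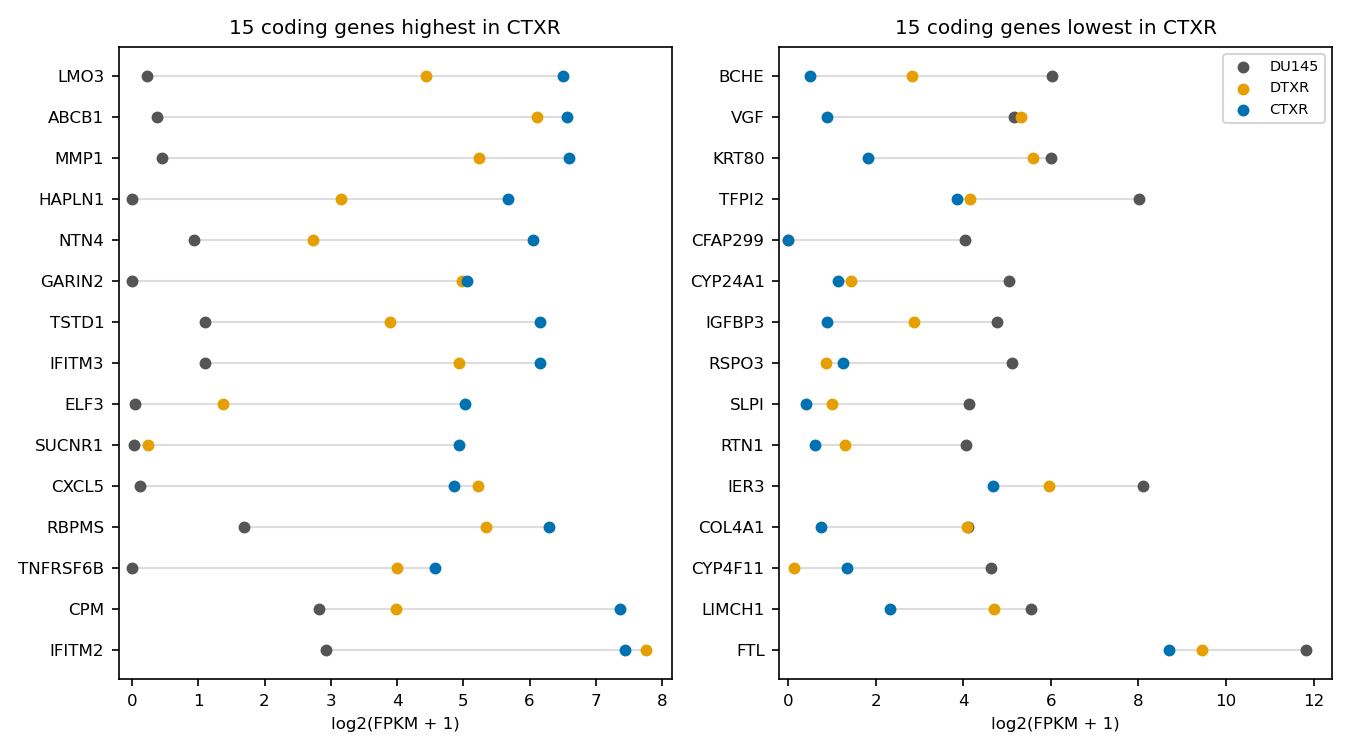
The 15 coding genes highest and the 15 lowest in CTXR relative to DU145, as log2(FPKM + 1) on the x axis, with 1 point per library. DTXR lies near CTXR for ABCB1, GARIN2, TFPI2 and CYP24A1, and near DU145 for SUCNR1, VGF, KRT80 and COL4A1.

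At the other end stood BCHE, butyrylcholinesterase, which dropped from 64.4 FPKM through 6.16 to 0.407, a log2 ratio of -5.54. VGF, the precursor of secreted neuropeptides, was near its DU145 level of 34.7 FPKM in DTXR, at 38.9, and had 0.853 in CTXR. KRT80, an epithelial keratin, likewise had 63.6 and 46.9 FPKM before the second selection and 2.56 after it. COL4A1, a basement membrane collagen chain, had 16.4 and 15.998 against 0.689. These 3 genes were high in DU145 and DTXR and low in CTXR. IGFBP3, which binds and sequesters insulin-like growth factors, went down at each step, from 26.4 through 6.32 to 0.863 FPKM. The protease inhibitor SLPI had 16.4, 1.003 and 0.340, and LIMCH1, an actomyosin regulator, 45.8, 25.1 and 4.01. Others were already low in DTXR. TFPI2, a serine protease inhibitor of the matrix, had 258 FPKM in DU145 against 13.4 in CTXR, CYP24A1, which inactivates vitamin D, 31.8 against 1.21, and RSPO3, a WNT agonist, 33.6 against 1.40. CFAP299 was listed at 0 in DTXR and CTXR and had 15.6 in DU145. RTN1, a reticulon, had 15.8, 1.48 and 0.529 FPKM.

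Abundant genes, at 100 FPKM or more in either line, also moved. FTL, the ferritin light chain that stores iron with the heavy chain, went down from 3631 FPKM through 695 to 416, a log2 ratio of -3.12. The heavy chain gene FTH1, added after its values were seen, was lower by a smaller amount, with 2682, 2815 and 1230 FPKM (log2 ratio -1.12). Both ferritin genes have processed pseudogene copies, so the division of their reads is uncertain. IER3, an immediate early survival gene, had 275, 61.3 and 24.6 FPKM. PTP4A1, a phosphatase, had 259, 75.6 and 52.5, and ID3, an inhibitor of bHLH transcription factors, 183, 65.7 and 37.1. All 3 fell in both resistant lines. TRIB3, a pseudokinase induced by ATF4, was kept in DTXR at 167 FPKM and had 204 in DU145 and 45.4 in CTXR. On the higher side CRIP1, a small zinc-binding LIM protein, had 20.5 and 26.4 FPKM in DU145 and DTXR and 292 in CTXR, and EFHD2, a calcium-binding protein, 17.5, 21.96 and 164. SRI, TMEM243 and SLC25A40, also among the 8 abundant genes with the largest rise, are neighbours of ABCB1.

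Interferon-stimulated genes were the list with the greatest share of higher members. Their promoters are shown first, because several carry the GAAANNGAAA core of the interferon-stimulated response element, the DNA site of the complex that contains STAT2 and IRF9. The letters were searched on both strands in RefSeq promoter windows of GRCh38.p14, each running from 250 bases before to 50 after a gene's start. The core was found in 3.57% of 35116 windows and in at least 1 window of 4.38% of genes. It was present in 23 of the 30 interferon-stimulated genes that had a window and in 7 of the 8 with a window that were higher in CTXR. Members not past the rule, ISG20, IFI27, IFIT5, IFITM1, HERC5, PARP9 and DTX3L, carried the core too, and HERC6 and UBE2L6 did not. The core therefore did not set the higher members apart from the others. For the MHC class I list it was present in 11 of 20, and in 6 of the 8 higher members. The stretches below lie before the start, are read on the strand of the gene, and show in capitals each match to the core or its reverse complement, with overlapping matches run together. They are ISG15 at chr1:1013364-1013419 (plus strand), IFI6 at chr1:27672256-27672368 (minus), IFIT1 at chr10:89392487-89392549 (plus), IFITM3 at chr11:320866-320932 (minus) and B2M at chr15:44711353-44711408 (plus).
ISG15: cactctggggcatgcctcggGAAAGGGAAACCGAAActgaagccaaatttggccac
IFI6: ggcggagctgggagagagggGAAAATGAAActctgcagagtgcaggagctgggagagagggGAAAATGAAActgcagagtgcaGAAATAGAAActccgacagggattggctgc
IFIT1: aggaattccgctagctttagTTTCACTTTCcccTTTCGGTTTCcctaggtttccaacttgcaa
IFITM3: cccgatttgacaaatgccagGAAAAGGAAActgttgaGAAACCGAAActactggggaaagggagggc
B2M: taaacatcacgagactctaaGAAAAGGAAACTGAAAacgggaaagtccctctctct
A match is a description of the letters, and binding was not measured.

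Of 37 listed interferon-stimulated genes 22 were measured, and 12 of them were higher in CTXR and none lower, with a median log2 ratio of 1.68. The list overlaps one already seen to be raised in these libraries, so its count is a description. The minimum of 1 FPKM in either line also admits genes that reach it in CTXR alone. With 1 FPKM or more required in both lines 5 members were higher, and with a pseudocount of 5 there were 7. ISG15, a ubiquitin-like modifier, increased from 7.35 FPKM in DU145 through 16.1 in DTXR to 56.4 in CTXR (log2 ratio 2.78). IFI6, an antiviral membrane protein, was lower in DTXR (3.59) than in DU145 (6.43) and reached 43.8 in CTXR. IFIT1, which binds foreign RNA ends, had 0.835 and 0.357 FPKM before and 5.31 after. OASL, a relative of the 2-5A synthetases, had 0.285 and 0.183 against 6.94. For IFI6, IFIT1 and OASL the high value was seen in CTXR and not in DTXR. Others were up in both resistant lines, as IFI35 with 7.42, 28.7 and 34.1 FPKM. OAS3, a sensor of double-stranded RNA, also belonged to them, with 0.822, 6.35 and 8.14. IFITM3 and IFITM2, membrane proteins that block virus entry, had 1.15, 29.5 and 70.4 FPKM and 6.61, 215 and 173. These paralogs are close copies of each other, so the split between them is uncertain. IFIT2, IFIT3, GBP2 and IFI44 were also higher, at 2.16 to 3.38 FPKM in CTXR. The other 15 listed genes stayed under 1 FPKM in both lines. Among them MX1 had 0.422, 9.30 and 0.231 FPKM, and RSAD2, XAF1, CMPK2 and GBP4 were listed at 0 in DU145, DTXR and CTXR. The leukocyte markers PTPRC and CD3E were listed at 0 in DU145, DTXR and CTXR, and all 6 leukocyte markers together summed to 0.237 FPKM in DU145 and 0.625 in CTXR.

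Of 25 measured genes of interferon sensing and signalling, 5 were higher and none lower (median 0.48). With 1 FPKM or more required in both lines 3 were higher. STING1, the adaptor of cytosolic DNA sensing, had 0.775, 3.28 and 12.6 FPKM, and IRF9, the DNA-binding partner of STAT2, had 2.99, 6.98 and 15.05. STAT2 was little changed in DTXR at 22.8 and went from 20.7 FPKM in DU145 to 50.9 in CTXR. Both of these partners were thus past the rule in CTXR. The receptor chain IFNAR2 had 12.7, 23.1 and 33.4 FPKM, and the RNA sensor IFIH1 0.449, 2.34 and 2.30. CGAS, the DNA sensor upstream of STING1, was at 11.4 and 14.7 in DU145 and CTXR, not past the rule.

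MHC class I presentation held 8 higher members of 22 measured and none lower, with a median of 0.67. With 1 FPKM or more required in both lines 5 were higher. The higher ones were the machinery of peptide supply more than the heavy chains. PSMB8 and PSMB9, catalytic subunits of the immunoproteasome, had 0.997, 25.4 and 25.9 FPKM and 2.68, 11.7 and 25.3. The proteasome activators PSME1 (13.5, 38.9 and 46.0) and PSME2 (16.6, 31.8 and 47.0) were higher too. TAP1, which carries peptides into the endoplasmic reticulum, went from 18.6 FPKM through 27.2 to 47.1, while its partner TAP2 was not past the rule. B2M, the light chain of every class I molecule, had 454, 647 and 1526 FPKM. The peptide-trimming enzyme ERAP2 and TAPBPL, a relative of tapasin, complete the 8. The heavy chain genes HLA-B and HLA-C had positive log2 ratios that did not reach 1, HLA-C with the higher. NLRC5, the transactivator of class I genes, was under 1 FPKM in DU145 and CTXR (0.759 and 0.866). In class II, 2 of 5 measured genes were higher. They were HLA-DRB1, with 2.56, 3.42 and 16.8 FPKM, and the peptide-loading chain HLA-DMA, with 17.9, 35.2 and 60.9. HLA genes are polymorphic and resemble one another, and their read assignment is uncertain.

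**Figure D3:**
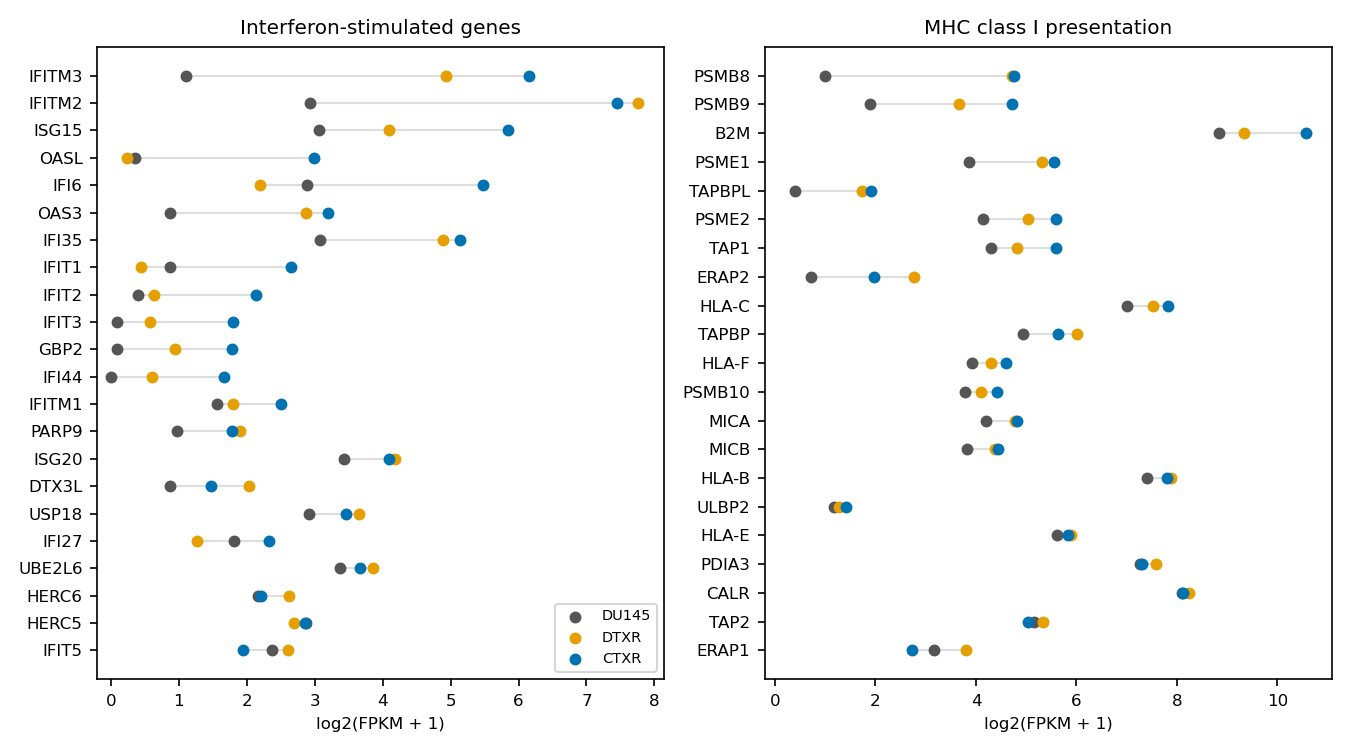
Interferon-stimulated genes (left) and MHC class I presentation genes (right), ordered by the CTXR to DU145 ratio, as log2(FPKM + 1) in 1 library per line. The first 12 genes on the left and the first 8 on the right are past the size rule.

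Inflammatory genes were divided. Of 15 measured chemokines and interleukins 4 were higher and 4 lower. IL18 (42.2, 72.2 and 116 FPKM) and LIF (22.2, 37.4 and 60.0) accompanied CXCL5 upward, whereas IL11, a cytokine of the IL-6 family, stood at 14.3, 1.98 and 1.62. CXCL2 had 37.3, 43.1 and 12.7 FPKM and CCL20, which attracts lymphocytes through CCR6, 4.97, 1.97 and 0.770. CXCL5 therefore differed in direction from CXCL1 and CXCL2, its neighbours on chromosome 4. Among 18 NF-kB pathway genes, the adhesion molecule ICAM1 was higher at 1.48, 31.5 and 13.02 FPKM. BIRC3, an inhibitor of apoptosis protein, went from 6.22 FPKM in DU145 to 11.6 in DTXR and had a log2 ratio of 2.05 in CTXR. IER3 was the lower one.

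Of 18 measured death receptors, decoys and caspases 5 were higher and none lower. CASP4, an inflammatory caspase, had 0.515, 17.7 and 8.13 FPKM, and CASP10, an initiator caspase of death receptors, 0.118, 2.93 and 3.66. CASP9, the initiator of the mitochondrial route, was seen at 5.51 and 3.82 FPKM in DU145 and DTXR and at 24.5 in CTXR. Both decoy receptors TNFRSF6B and TNFRSF10C were in the group, the former with an uncertain DU145 value. TNFRSF10C had 6.97 FPKM in DU145 and 15.3 in CTXR, and was short of the rule (log2 ratio 0.90) without mitochondrial genes in the total. Of 17 BCL2 family genes, the higher ones included the pro-apoptotic members BAD (39.8, 49.3 and 99.1 FPKM) and BCL2L11 (2.84, 4.34 and 8.003). BCL2L10, with 0.335 and 3.28 FPKM in DU145 and CTXR, was higher as well. HRK, another pro-apoptotic member, was lower, at 4.58 and 1.005.

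Genes of the cell surface and matrix changed in both directions. In a list of 28 measured matrix proteins 10 were higher and 6 lower (median 0.44). The laminin chain LAMA3 (3.24, 18.1 and 38.2 FPKM) and the collagen chain COL5A2 (0.291, 1.38 and 5.35) were higher. Chains of collagen IV went both ways. COL4A5 stood at 0.267, 9.08 and 9.09 FPKM, while COL4A1 and COL4A2 were lower, the latter at 19.2, 35.7 and 2.55. COL4A3 (5.29, 1.64 and 0.125) and COL4A4 (7.09, 1.97 and 0.0315) were lower too and lie together on chromosome 2. CCN1, a matricellular protein, had 407, 258 and 137 FPKM, and THBS1, thrombospondin 1, 13.3, 17.5 and 4.34. The fibroblast markers summed to 4.37, 3.33 and 11.6 FPKM. Of these, COL3A1 (1.31, 0.0296 and 6.85) and COL1A1 (2.61, 2.33 and 4.58) made up nearly all, while LUM was listed at 0 and DCN and PDGFRB were at 0.0966 and 0.0630 in CTXR. Their part in the matrix result was not tested. Of 12 measured integrins, ITGA10 alone passed the rule, at 0.203 and 2.59 FPKM.

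Among 17 measured proteases and inhibitors 4 were higher, all proteases, and 2 lower, the inhibitors SLPI and TFPI2. Beside MMP1, the membrane-anchored MMP14 had 4.27, 27.8 and 23.9 FPKM. The plasminogen activators PLAU (15.9, 48.4 and 72.9) and PLAT (1.34, 0.737 and 9.20) were higher. The other 11 were not past the rule.

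The list of epithelial junction genes and regulators, which includes ELF3, had 4 of 24 members higher, ELF3 among them, and 2 lower. The tight junction claudins CLDN7 (3.08, 25.6 and 35.5 FPKM), CLDN4 (2.67, 0.857 and 17.7) and CLDN3 (25.1, 19.95 and 109) were higher. CLDN7 had risen in DTXR, and CLDN3 and CLDN4 had not. The desmosomal plaque protein DSP (30.8, 27.4 and 12.5) and CLDN11 (11.03, 0.496 and 2.75) were lower. Keratins were split as well. KRT19 went from 60.8 FPKM in DU145 down to 13.9 in DTXR and up to 138 in CTXR, and KRT7 the opposite way, with 98.3, 490.4 and 30.1. Of 16 measured mesenchymal genes 4 were higher and 2 lower. The ligand TGFB2 (0.262, 3.94 and 5.43) and the surface enzyme NT5E (8.39, 50.2 and 40.3) were higher, and the receptor kinase AXL (138, 101 and 63.1) was lower. S100A4, a calcium-binding protein of motile cells, was lower than in DU145 (109) in both DTXR (2.61) and CTXR (26.8). The related S100A11 (252, 399 and 701) and S100A16 (1.70, 52.6 and 17.0) were higher.

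In the ERBB family the ligands and a receptor moved apart. AREG, amphiregulin, had 10.9, 31.4 and 96.5 FPKM, a log2 ratio of 3.04. EREG, epiregulin, had 8.32, 37.4 and 74.95, and EPGN, epigen, was listed at 0 in DTXR and had 0.587 in DU145 and 8.05 in CTXR. These 3 genes lie side by side on chromosome 4 and are ligands of EGFR. EGFR itself was above DU145 in DTXR (75.4 against 49.2 FPKM) and lower in CTXR, at 18.1 (log2 ratio -1.39). ERRFI1, a feedback inhibitor of EGFR, had 38.2, 64.4 and 98.5. Of 13 measured members in all, 4 were higher and 1 lower.

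The IGF axis showed 3 higher and 3 lower of 12. The receptor IGF1R was lower at each step, with 59.9, 33.1 and 6.72 FPKM (log2 ratio -2.98), alongside IGFBP3. The ligand IGF2 (1.41, 0.918 and 10.5), the adaptor IRS1 (2.41, 6.02 and 9.99) and IGFBP2 (27.9, 12.3 and 82.5) were higher. In the WNT list 5 of 15 were higher and 4 lower. The ligand WNT7B had 0.587, 12.2 and 30.6 FPKM, and LGR4, a receptor for R-spondins, had 3.27, 12.1 and 69.4, while the R-spondin RSPO3 was lower. The secreted inhibitors were divided, with SFRP1 at 1.13, 0.264 and 8.19 and DKK1 at 383, 127 and 140.5. LEF1, a transcription factor of the pathway, was lower at 2.53, 5.72 and 0.619. Notch and Hedgehog genes had no higher and 3 lower members of 16. These were the receptor NOTCH1 (4.64, 1.89 and 1.44), the ligand JAG2 (20.6, 13.3 and 7.16) and the target HES1 (5.33, 5.52 and 0.929). Of the TGF-beta and BMP genes 2 of 23 were higher and 3 lower, with the greatest fall in ID3. Other growth factors were lower as well, FGF2 at 13.4, 24.1 and 3.53 FPKM and PDGFA at 4.56, 0.531 and 0.675, and VEGFC was higher at 0.800, 8.60 and 5.28.

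Stress and amino acid genes included members that fell between DTXR and CTXR. Of 26 measured genes of ATF4 and the unfolded protein response 2 were higher and 4 lower. TRIB3, the amino acid transporters SLC7A5 (204, 196 and 73.5 FPKM) and SLC7A11 (92.5, 115 and 38.4), and ASNS, asparagine synthetase (243, 155 and 114), were the lower ones. They are targets of ATF4, which acts through sites such as TGATGNAA. That motif was found in 3.62% of all windows, in 5 of 23 listed genes with a window and in 1 of 3 lower ones. ASNS carries it at chr7:97872449-97872496 on the minus strand, shown as an example, with the match in capitals.
ASNS: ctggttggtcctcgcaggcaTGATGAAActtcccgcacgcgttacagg
The higher members SDF2L1 (34.6, 41.9 and 91.0) and CRELD2 (15.2, 16.4 and 33.6) are chaperone-related genes of the endoplasmic reticulum, and CRELD2 was short of the rule (log2 ratio 0.96) without mitochondrial genes in the total.

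NRF2, glutathione and antioxidant genes had 4 higher and 5 lower of 31. Haem oxygenase HMOX1 (157, 144 and 50.8 FPKM), the sulfiredoxin SRXN1 (337, 216 and 122) and OSGIN1 (56.8, 37.7 and 13.3) were lower, as was SLC7A11. GPX4, which repairs lipid peroxides, was higher, with 194, 213 and 634. The glutathione transferases GSTM1 (3.66, 16.9 and 24.0) and GSTM2 (0.666, 4.10 and 9.71) were also higher, and are paralogs whose reads can be shared. GPX1 had 0.543, 64.3 and 71.9 FPKM and is annotated as a polymorphic pseudogene, so its low value in DU145 is uncertain. Heat shock genes gave 2 higher and 4 lower of 20. The small chaperone HSPB1 had 106, 64.0 and 446, and HSPB8 was listed at 0 in both resistant lines from 7.55 in DU145. The metallothioneins MT1A (1.40, 80.1 and 37.7) and MT1M (33.5, 80.9 and 132) were higher among 9 measured close paralogs, whose median was -0.07. MT1B was lower, at 1.38 FPKM in DU145 and listed at 0 in both resistant lines.

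Targets of hypoxia-inducible factors gave 4 higher and 5 lower of 22 (median -0.39). With the same total without mitochondrial genes the counts were 1 higher and 5 lower (median -0.50), with HIF1A, BNIP3L and LOXL2 short of the rule. The secreted glycoprotein STC2 (76.6, 68.2 and 17.6 FPKM), NDRG1 (25.7, 9.61 and 7.90) and the glucose transporter SLC2A1 (83.7, 48.4 and 34.6) were lower. ANGPTL4, a lipase inhibitor, was higher at 10.2, 26.2 and 26.3. Of 23 glycolytic and pentose phosphate genes, 1 was higher and 2 were lower, among them the hexokinase HK2 (14.4, 5.05 and 4.84). Cholesterol synthesis had 5 higher and no lower genes of 21, with a median of 0.44. They were FDFT1, squalene synthase (33.9, 78.8 and 99.0), MVK and MVD of the mevalonate route, and HSD17B7 and MSMO1, which were both short of the rule without mitochondrial genes in the total. In lipid handling CPT1C, a brain-type carnitine palmitoyltransferase, had 0.506, 0.359 and 14.6 FPKM, and CPT1A, the liver type, was lower at 21.96, 17.8 and 9.78.

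Aldehyde dehydrogenase and retinoid genes were among the lists with many higher members, 6 of 19 against 1 lower. RDH10, which oxidises retinol, changed in both directions along the lineage, from 195 FPKM down to 10.7 and up to 616. ALDH1A3, which makes retinoic acid, had 5.66, 22.1 and 25.8 and its binding protein CRABP2 22.4, 36.5 and 59.9. ALDH3A1 was listed at 0 in DU145 and had 1.90 and 4.69. Of 16 measured cytochrome P450 genes 1 was higher and 4 were lower, where 8.50% and 6.24% of all measured genes were. CYP27A1, a sterol hydroxylase, was higher at 0.287, 4.96 and 4.46. CYP4F11, CYP4F3 and CYP4F12, neighbours on chromosome 19, were lower, at 23.9, 3.32 and 1.69 FPKM in DU145 against 1.54, 0.463 and 0.295 in CTXR, and are paralogs whose reads can be shared. CYP4F3 and CYP4F12 were short of the rule with a pseudocount of 5 (log2 ratios -0.61 and -0.34). Of 13 mitochondrially encoded mRNAs none passed the rule, and their median was -0.12. Among 29 DNA repair genes, the checkpoint kinase CHEK2 was higher (24.3, 16.9 and 55.8) and 2 were lower, among them the recombination gene XRCC2 (14.4, 12.5 and 5.39).

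**Figure D4:**
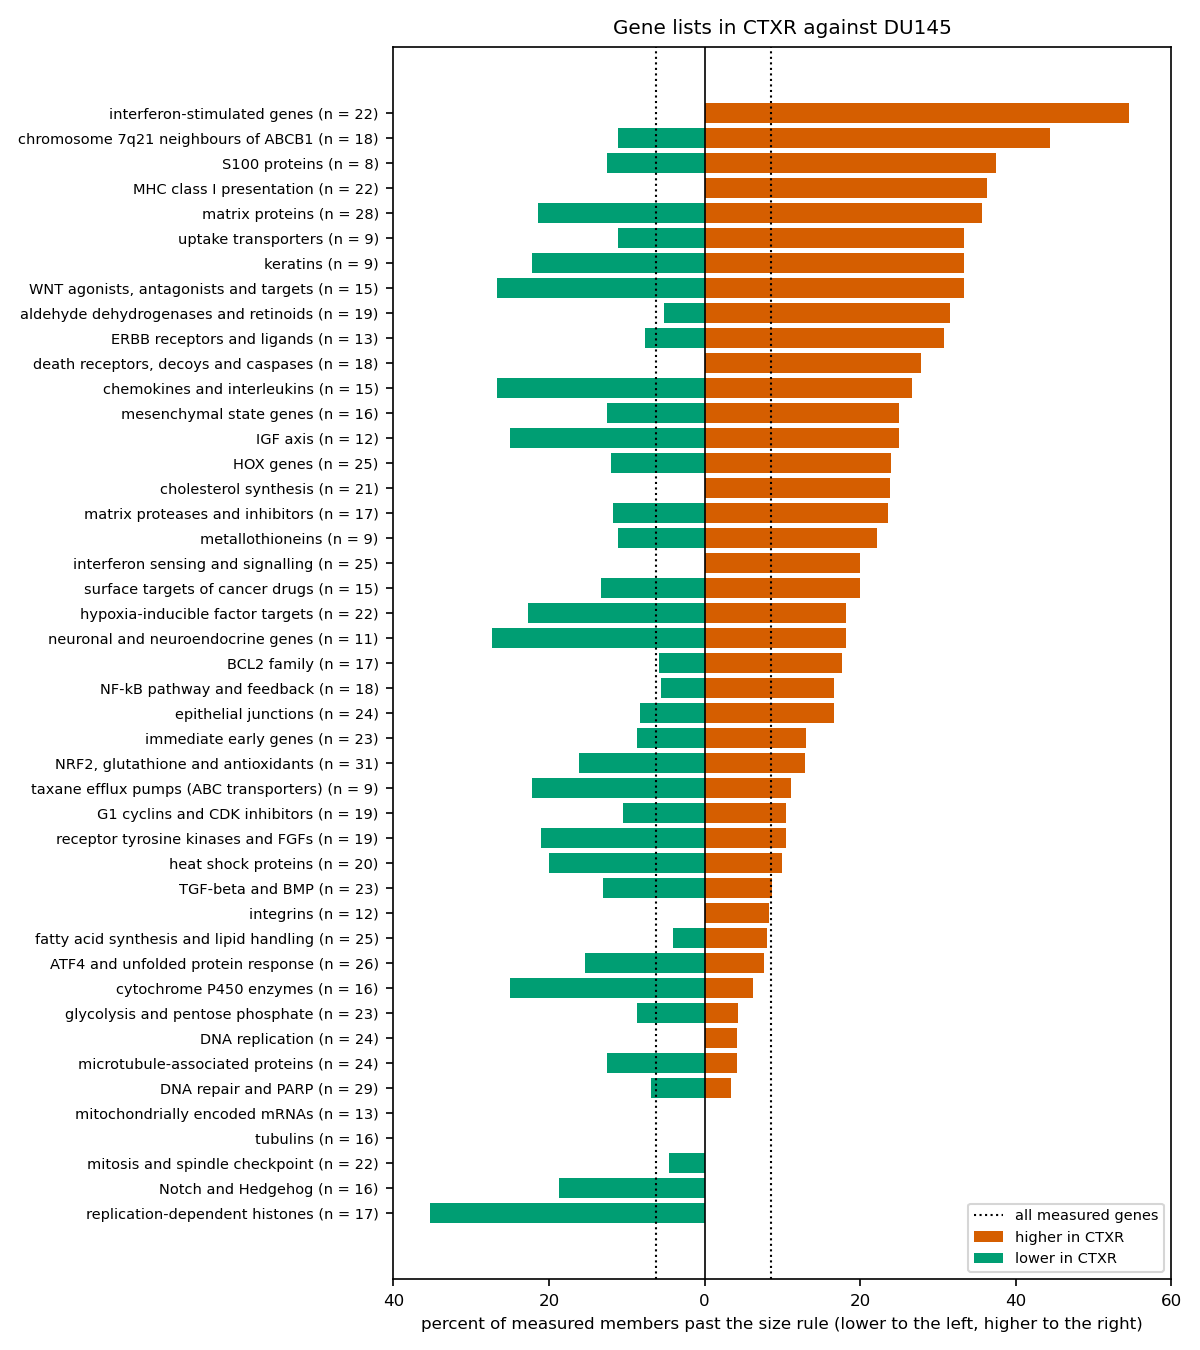
Percent of measured members past the size rule in the gene lists with at least 8 measured members, lower to the left and higher to the right. Dotted lines mark 8.50% and 6.24% of all measured genes. Interferon-stimulated genes reach farthest to the right and replication-dependent histones farthest to the left.

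Some called genes lay next to each other. Runs of at least 5 neighbouring measured coding genes past the rule in the same direction were found 4 times, all downward, and the stretches below were chosen after their values were seen. The first was on chromosome 2, from RHBDD1 to AGFG1 (226835581 to 227561214, GRCh38), with 6 genes and a median log2 ratio of -2.25 in CTXR and -0.97 in DTXR. It holds COL4A4, COL4A3, TM4SF20 and MFF, a mitochondrial fission factor with 371, 228 and 56.8 FPKM. AGFG1 had 146, 96.2 and 35.5. IRS1 and DOCK10, just beside it, were higher instead, DOCK10 at 1.52, 5.16 and 20.2. The change of sign thus came between neighbours.

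The other 3 runs were clusters of zinc finger genes on chromosome 19. KRAB zinc finger proteins of such clusters are repressors, many of them directed at transposable elements. From ZNF506 to ZNF85 5 genes were lower, from ZNF880 to ZNF83 5, and from ZNF600 to ZNF677 7. In the wider stretch from ZNF766 to ZNF525 (52269571 to 53392217) 13 of 17 measured genes were lower and none higher, with a median of -1.67 in CTXR and 0.38 in DTXR. ZNF600 had 7.14, 10.3 and 0.0106 FPKM, ZNF320 6.12, 8.03 and 0.170, and ZNF83 24.2, 27.1 and 6.77. ZNF766, ZNF480, ZNF611 and ZNF845 in the same stretch were not past the rule. Of 191 measured ZNF genes on chromosome 19, 29 were lower and 1 higher (median -0.38, against 0.08 in DTXR). Of the 224 on other chromosomes, 12 were lower and 6 higher (median -0.14). Genes of these clusters resemble one another and can share reads.

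Around ABCB1, between SEMA3D and CFAP69, 9 of 15 measured genes, ABCB1 included, were higher and 2 lower. Over all measured coding genes 7.52% were higher and 4.80% lower. The median log2 ratio of all 15 was 2.48 in CTXR and 2.43 in DTXR. In the list of chromosome 7q21 neighbours, which leaves ABCB1 out, 8 of 18 measured genes were higher and 2 lower. Its medians were smaller, at 0.89 in CTXR and 1.74 in DTXR. TMEM243 had 16.8, 126 and 196 FPKM, CROT, a peroxisomal carnitine acyltransferase, 4.96, 31.1 and 56.4, and SRI, sorcin, a calcium-binding protein, 40.8, 492 and 551. GRM3, a glutamate receptor, was listed at 0 in DU145 and had 12.8 and 21.1. RUNDC3B, directly beside ABCB1, was past the rule in DTXR and not in CTXR, with 2.30, 8.13 and 4.48. It overlaps ABCB1 on the other strand, and the use of strand in counting is not stated. STEAP2 and CFAP69 at the far side were lower.

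Several named genes sat among neighbours that shifted with them. Here the neighbour median is the median log2 ratio of the 5 nearest measured coding genes on each side, which lay between -0.60 and 0.66 for all but the outer 5% of genes. It was 1.01 around B2M, where 6 of 11 genes from GOLM2 to SHF were higher, among them B2M itself and TRIM69 (7.92, 9.12 and 17.7 FPKM). It was 1.12 around PSMB8, 0.97 around PSMB9 and 0.76 around TAP1, which lie together on chromosome 6. Each of these genes counts as a neighbour of the others, so their medians partly reuse the same calls. PSME1, PSME2 and IRF9 lie within a stretch on chromosome 14, from PSME1 to TINF2, where 6 of 15 genes were higher. These include PSME1, PSME2 and IRF9 themselves and NEDD8, a ubiquitin-like modifier (51.4, 96.3 and 125). Around ISG15, IFI6 and OASL the neighbour medians were near 0, at -0.02, 0.03 and -0.01. Around EGFR 4 of 9 genes were lower, including EGFR itself and GRB10, an adaptor of receptor kinases (20.99, 27.5 and 2.02). The claudin genes CLDN3 and CLDN4 formed a run of 4 higher genes with STX1A and ABHD11 on chromosome 7. DNA copy number and chromatin were not measured, and their part in these patterns was not tested.

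**Figure D5:**
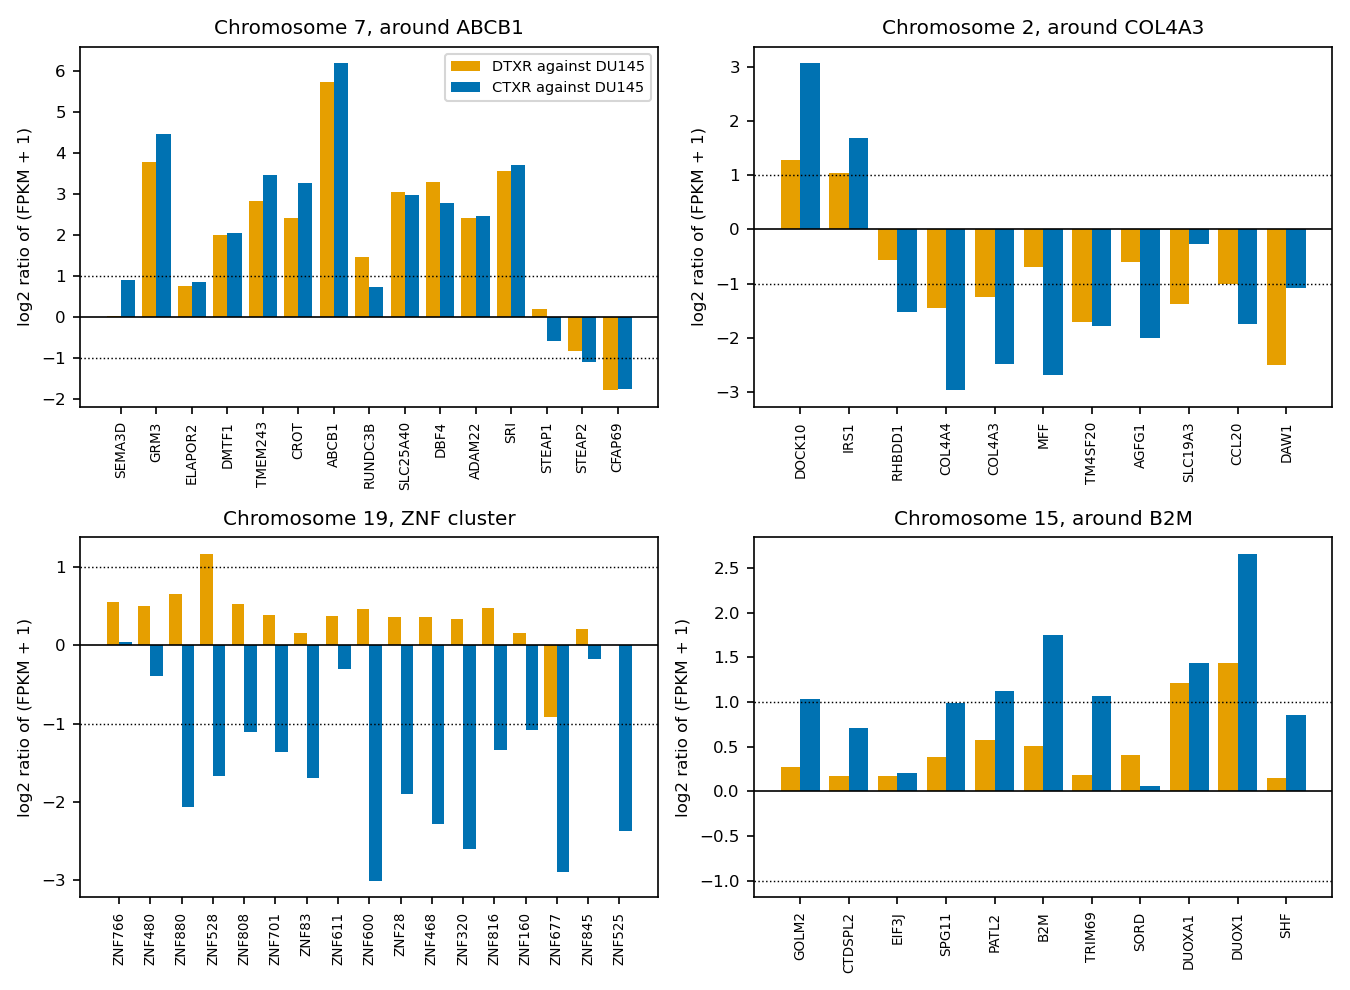
Log2 ratio to DU145 of measured coding genes in chromosome order in 4 stretches, with DTXR in orange and CTXR in blue and dotted lines at the size rule. The genes around ABCB1 rise in both lines, those of the ZNF cluster are lower in CTXR and mostly slightly above DU145 in DTXR, and the B2M stretch is higher mainly in CTXR.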

How the data were processed

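Total RNA came from TRIzol extraction and was made into stranded mRNA libraries, per the labels' protocols. The authors deposited FPKM per gene in 1 table per library, with Ensembl identifiers, per the file headers. The submitters' processing notes name HISAT, StringTie, Cuffnorm and GRCh38. Their versions, the annotation, the use of strand, the scaling between libraries and the read totals are not given in any source used here. The software estimates FPKM by a model that divides reads among paralogs, pseudogenes and overlapping genes, and a listed 0 may be an estimate that failed.

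Groups came from the sample labels. FPKM were used as deposited with a pseudocount of 1, a minimum of 1 FPKM in DU145 or CTXR and a size rule of 1 on the log2 scale, without a test. Symbols were matched for 56550 of 60658 identifiers from a gene name table, and biotypes and coordinates for 57047 from GENCODE release 29. Among 728 genes with low FPKM the commonest ratio of CTXR to DU145 was 0.742 (181 genes), which a depth 1.35 times that of DU145 would give.

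The comparison and the 47 gene lists were chosen with earlier results of these data known. Genes were named by rule: ABCB1; in each direction the 15 coding genes with the largest ratio, the 8 largest at 100 FPKM or more and the 5 largest lncRNAs; up to 6 called members per list and direction; and the ends of runs. FTH1, list members that were not called or not measured, and the genes of the chromosome stretches were added after their values were seen, and some genes are not reported here. Promoter sequences are from RefSeq (GRCh38.p14). The size rule was tried on simulated data with changes planted only in genes well above the minimum in DU145. That trial therefore does not cover low genes. Python 3.11.15, numpy 2.4.6, pandas 2.3.3 and matplotlib 3.10.9 were used. Other pseudocounts, filters, scalings and size rules were tried.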

Additional observations from a re-analysis of the deposited data

Results flagged for a closer look

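CabR is the cabazitaxel-resistant subline of C4-2B, derived through TaxR. For 14 of the 256 named genes the log2 ratio to the parent passed the size rule in opposite directions in CTXR and CabR, with 1 library per line. Others passed it in the same direction and were not counted, such as ABCB1 (6.19 and 9.54) and NDRG1 (-1.59 and -3.27). Named genes were picked by their change in CTXR, so the count does not show how common opposite directions are. The difference between the lineages was not tested. The growth factor binding gene IGFBP3 stood at -3.88 in CTXR and 3.06 in CabR, where it went from 13.01 to 115.7 FPKM. The other genes lower in CTXR and higher in CabR were the cytokine IL11 (-2.55 and 1.24) and the reticulon RTN1 (-3.46 and 1.08). Higher in CTXR and lower in CabR were RBPMS (4.60 and -1.38) and CRIP1 (3.77 and -1.04), which was at 2.13 FPKM in C4-2B against 20.5 in DU145. The peptide-loading gene HLA-DMA had 1.71 and -2.02, the adaptor IRS1 1.69 and -1.32, and the immediate early gene FOS 1.38 and -2.43. The EGFR inhibitor ERRFI1 had 1.34 and -1.47, the neuronal enolase ENO2 1.21 and -2.65, and the keratin KRT19 1.17 and -1.76. DHRS3, a retinal reductase, had 1.14 and -2.44, MSMO1 of cholesterol synthesis 1.09 and -1.32, and the mitophagy receptor BNIP3L 1.06, against a fall from 136.7 to 33.4 FPKM in CabR.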

How the results depend on the processing

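Counts were recomputed under 13 alternative settings. The 1299 higher genes became 470 with a pseudocount of 5, 795 at 5 FPKM or more in either library, 742 at 1 FPKM or more in both, 521 at a log2 ratio of at least 1.5 and 257 at 2. The 953 lower genes became 1513 with a pseudocount of 0.1, 259 with 5, 549 at 5 FPKM or more, 550 at 1 FPKM in both, 598 among coding genes alone, 320 at 1.5 and 122 at 2. Under the other settings, scalings included, the counts stayed within 1.5 times. No sign changed among the 256 named genes, but none could. Pseudocounts and filters leave signs as they are, and the scalings were small against the size rule. With a pseudocount of 5, 92 named genes no longer passed the rule, mostly genes of low FPKM. With the same total without mitochondrial genes 17 no longer passed it. The median of the chemokine list went from 0.08 to -0.05 under that scaling. The cause was not tested. No paired analysis was possible because each line has 1 library. Low genes carry the least depth, and their ratios are the least certain.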

Other observations

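Of 675 measured lincRNAs 92 were higher and 82 lower in CTXR, and of 779 antisense genes 86 and 80. Of all measured genes 8.50% were higher and 6.24% lower. Those with the largest rise included TP53TG1 and GRM3-AS1, which lie near ABCB1, at 2.98 and 50.1 FPKM in DU145 and CTXR for the former and listed at 0 and at 22.5 for the latter. FAM88F (0.526, 5.13 and 20.996 in DU145, DTXR and CTXR), TM4SF1-AS1 (1.17, 0.634 and 21.1) and ELF3-AS1, beside ELF3 (listed at 0, then 1.33 and 8.12), were also among them. The lowest were ZNF433-AS1 (5.47 in DU145, 0.0994 in CTXR), HDHD5-AS1 (7.17 and 0.502), BCAN-AS2 (33.9 and 5.70), ZNF667-AS1 (20.03 and 3.10) and SYT15-AS1 (8.31 and 0.895). Reads of an antisense gene and its partner cannot be told apart here, since the use of strand in counting is not stated.

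HOX genes, which set position along the body axis, had 6 higher and 3 lower of 25 measured members. The higher ones were in the A and B clusters, and HOXB3, HOXB5, HOXB6 and HOXB7 formed a run of 4 neighbouring measured genes (HOXB5 at 3.96, 6.73 and 11.7 FPKM). HOXB6, HOXB7 and HOXA5 were short of the rule with the same total without mitochondrial genes. The lower ones were HOXC8 (3.77, 5.47 and 1.13), HOXC9 (7.23, 6.89 and 2.71) and HOXD8 (2.71, 2.38 and 0.421). Among 15 measured surface targets of cancer drugs, CD24 (3.60, 0.426 and 18.98), MUC1 (14.1, 9.99 and 36.7) and CD274, the ligand PD-L1 (0.545, 2.87 and 3.52), were higher. The receptor EGFR (49.2, 75.4 and 18.1) and STEAP2 (9.60, 5.01 and 3.98) were lower. Of 11 measured neuronal and neuroendocrine genes 2 were higher and 3 lower, the neurofilament genes NEFM (1.31, 1.92 and 8.60) and NEFL (6.92, 3.03 and 1.49) on opposite sides.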
